A study of Mus musculus with 9 samples.

Results

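The 7 genes described here, Ear1, Ear2, Siglecf, Krt79, Plet1, Pparg and Itgax, are used as identity genes of the resident alveolar macrophage of the mouse. They were taken as a list of named genes, drawn up with earlier results of these data known, from a table of 57010 genes measured in whole lung, and all 7 were among the 15487 genes tested, those with 1 TPM or more, a length-corrected share of all transcripts, in 3 or more of the 9 libraries. The study asked how copper oxide nanoparticles (CuO NPs) change the mouse lung transcriptome, and what TTM, an agent that the labels give only by this abbreviation, changes when it is taken with the particles. All mice were C57BL/6J, and the labels give no age. The control mice received 100 µl of sterile saline into the trachea. The CuO mice received a single intratracheal dose of CuO NPs at 2 mg/mL in 100 µl of saline. The CuO_TTM mice received the same dose and drank water with TTM at 0.02 mg/mL. Lungs were taken on day 7 from 3 mice per group, and polyadenylated RNA of each lung was sequenced as a library of its own.

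Resident alveolar macrophages live on the surface of the air spaces, where they take up inhaled particles and clear surfactant. They depend on the cytokine GM-CSF, made largely by alveolar epithelial cells, and on TGF-beta, and both induce the nuclear receptor PPAR gamma, the product of Pparg. Their surface carries the sialic acid binding lectin Siglec-F and the integrin CD11c, the product of Itgax, a pair commonly used to sort them. Ear1 and Ear2 encode secreted ribonucleases of the eosinophil-associated family, Krt79 a keratin, and Plet1 a membrane protein named for its expression in placenta. Several of these genes are also expressed elsewhere: Siglecf and Ear transcripts in eosinophils, Itgax in dendritic cells, Pparg in adipocytes.

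The labels describe the samples as bulk lung tissue, so a lower level can come from fewer cells of a type or from less RNA per cell, and these cannot be told apart. The deposited values were TPM, which sum to the same total in every library, so sequencing depth was unknown and no counting interval could be given. Correlations across genes between libraries ranged from 0.864 to 0.973, and CuO replicate 1 stood apart, with correlations of 0.864 to 0.901 and a median gene 0.53 below the mean of all libraries on the log2 scale, against -0.16 to 0.26 in the other 8. Several of the results that rest on it are also given without it. A list of 19 other alveolar macrophage genes, like the members drawn up with earlier results of these data known, was summed in each lung. The sum was 979 to 1877 TPM in control, 891 to 2065 TPM in CuO and 1063 to 2759 TPM in CuO_TTM lungs. It holds Cd9 at 289 to 694 TPM and Car4 at 57.2 to 202 TPM over the 9 lungs. Which cells carried these transcripts was not tested, so the sum does not show how many alveolar macrophages a lung held. The lowest of the CuO_TTM sums, that of replicate 1, includes Fabp4 at 334 TPM, which adipocytes also express, and Il1rn at 154 TPM.

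Ear1 and Ear2 are near copies of each other, so their sequences are shown first, because the results turn on a difference between them. In the 250 bases upstream of the start, the RefSeq entries (build GRCm38.p6, older than the GRCm39 of the deposited table) place Ear1 at chr14:43819640-43819889 on the minus strand and Ear2 at chr14:44102404-44102653 on the plus strand. They were identical at 246 of 248 aligned bases (99.2%), and capitals mark the 2 bases that differ.
Ear1 upstream: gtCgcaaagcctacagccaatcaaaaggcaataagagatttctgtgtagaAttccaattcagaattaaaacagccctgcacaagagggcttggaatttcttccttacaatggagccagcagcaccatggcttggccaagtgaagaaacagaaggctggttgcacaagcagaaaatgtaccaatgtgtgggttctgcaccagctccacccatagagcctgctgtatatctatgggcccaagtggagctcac
Ear2 upstream: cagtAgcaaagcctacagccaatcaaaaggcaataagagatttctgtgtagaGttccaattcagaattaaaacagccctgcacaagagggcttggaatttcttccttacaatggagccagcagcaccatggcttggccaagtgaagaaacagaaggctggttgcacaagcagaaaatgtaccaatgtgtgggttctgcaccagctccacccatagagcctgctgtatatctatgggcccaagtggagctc
The coding sequences, read from GENCODE M21 transcripts of GRCm38, were 468 and 471 bases long and identical at 448 of 468 aligned bases (95.7%). The stretch with the densest differences is shown, from coding base 305 of each gene, with capitals for the 6 substituted bases and for the 3 bases found only in Ear2.
Ear1 coding: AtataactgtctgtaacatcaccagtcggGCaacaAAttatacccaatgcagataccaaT
Ear2 coding: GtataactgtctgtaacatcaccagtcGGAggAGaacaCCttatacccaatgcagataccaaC
Over the whole transcripts the pair shared 23.8% of the 50-base windows of Ear1 but none of its 614 windows of 100 bases, and the longest identical run in the coding sequence was 96 bases. Against Ear10, a further family member, Ear1 shared 2.44% and Ear2 13.9% of 100-base windows, and Ear10 was listed at 0 in all 9 libraries. How the authors' counting divided reads that fall in shared stretches was not given in the sources used here, so the split between these genes is uncertain. The upstream windows of the 7 genes, 9 in all because Pparg has 3 start sites, were searched on both strands for exact strings. These were GAGGAAGT (a PU.1 site, in 2.44% of 32851 windows of the same kind) and TTCNNNGAA (STAT5, 7.02%). The DR1 element of PPAR gamma and its partner RXR (0.0335%) and TTGCNNCAA (1.74%) were searched as well. None of these exact strings occurred in the 9 windows. TTGCNNCAA was taken for C/EBP but does not match the shorter TTGCACAA, which the Ear1 and Ear2 windows shown above both hold. C/EBP sites were therefore not tested.

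The secreted ribonuclease Ear1 was the member whose level differed most between groups. It stood at 24.9, 124 and 48.05 TPM in the control lungs, at 0.23, 2.12 and 3.2 TPM in the CuO lungs and at 5.13, 10.8 and 21.3 TPM in the CuO_TTM lungs. Every CuO lung lay below every CuO_TTM lung, and every CuO_TTM lung below every control lung. The means were 65.7 ± 52.0 TPM (SD, n = 3) in control, 1.85 ± 1.5 TPM in CuO and 12.4 ± 8.20 TPM in CuO_TTM lungs. This order of the 3 groups, looked for after the values were seen, was found in 8 of 15487 genes (0.0517%).

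In a limma F test for any difference between the 3 groups, with Benjamini-Hochberg adjustment over all 15487 genes, Ear1 passed at 0.05 (adjusted p = 0.0384) and was the only member to do so. The test called 1.2% of all genes. The call for Ear1 held when CuO replicate 1 or CuO_TTM replicate 1 was left out and was lost, at adjusted p of 0.0604 to 0.149, when any other library was left out, each of control replicates 1, 2 and 3, CuO replicates 2 and 3 and CuO_TTM replicates 2 and 3. Among the other members the F test gave adjusted p = 0.329 for Krt79, 0.399 for Ear2 and 0.410 for Itgax, and 0.772 to 0.893 for Plet1, Pparg and Siglecf.

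No single contrast passed the same threshold for Ear1. On the log2(TPM + 1) scale the difference in CuO against control lungs was -4.42, with a standard error of 0.68 and a 95% interval of -5.96 to -2.89 (limma, adjusted p = 0.133), and Ear1 ranked 9 by p among all genes. No gene of the table was called in that comparison. In CuO_TTM against CuO lungs the difference was 2.22 (adjusted p = 0.292), and in CuO_TTM against control lungs -2.21 (adjusted p = 0.139). With the 6 particle-exposed lungs set against the 3 control lungs it was -3.32, standard error 0.59 (adjusted p = 0.0556). An exact two-sided permutation test of that last contrast gave an unadjusted p = 0.0238, where 0.0119 is the smallest the design allows. Without CuO replicate 1 the adjusted p of that contrast was 0.0214, which passed the threshold, at a difference of -3.06.

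**Figure D1:**
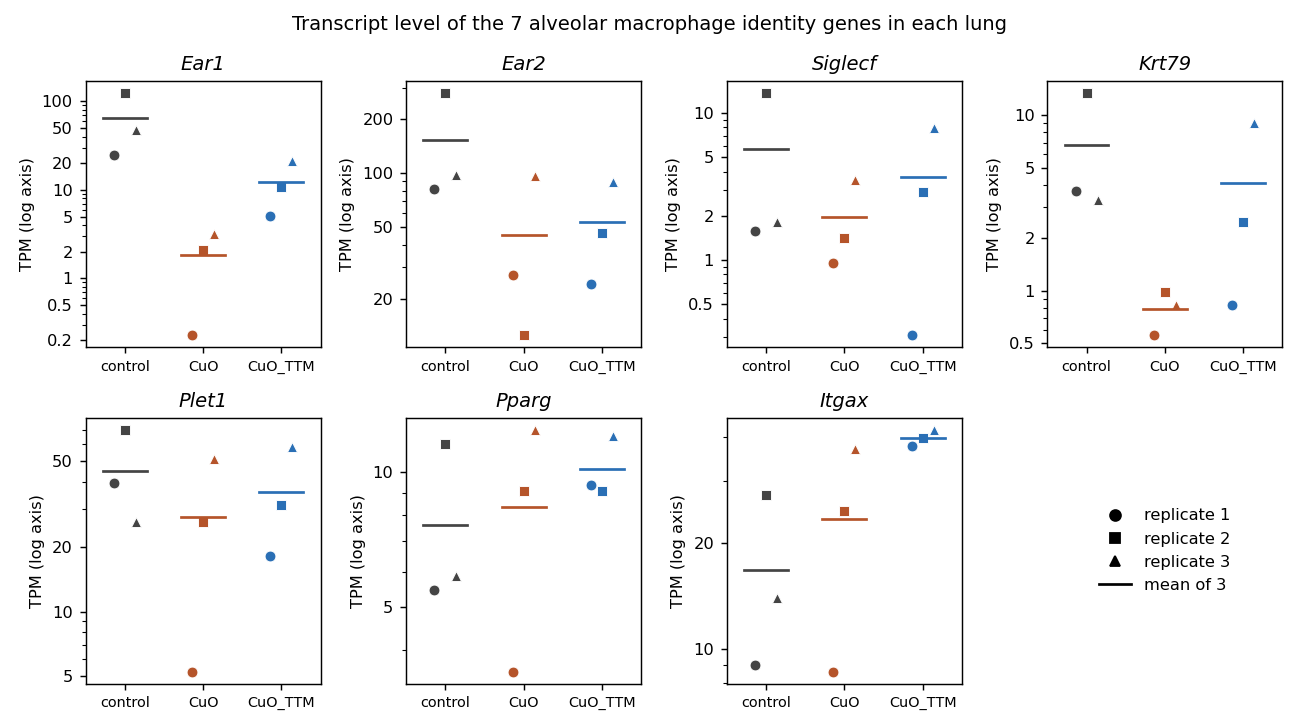
Level of each of the 7 genes in TPM (log axis) in the 9 lungs, by group, with 1 point per lung, the replicate number as the symbol and the group mean as a line. The 3 CuO lungs sit lowest for Ear1, at 0.23 to 3.2 TPM, while the 3 CuO_TTM lungs sit highest for Itgax, at 37.7 to 41.95 TPM.

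Ear2, the close relative of Ear1, was the most abundant of the 7 in every group but did not separate the groups. Its levels were 81.1, 279 and 98.1 TPM in control, 27.0, 12.6 and 96.1 TPM in CuO, and 24.1, 46.3 and 89.4 TPM in CuO_TTM lungs. One CuO lung, replicate 3, reached the level of the lower control lungs, so the groups overlapped. The difference was -1.98 (standard error 0.76, adjusted p = 0.552) in CuO and -1.47 (adjusted p = 0.345) in CuO_TTM against control lungs.

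Because the members share a library, their ratio within a library does not depend on how the library was scaled, and the ratios given here were chosen after the values were seen and carry no test. The ratio of Ear1 to Ear2 was 0.307, 0.445 and 0.490 in control lungs, 0.00851, 0.169 and 0.0333 in CuO lungs, and 0.213, 0.234 and 0.238 in CuO_TTM lungs. The 3 groups did not overlap, and Ear1 was the only 1 of 15486 genes (0.00646%) whose ratio to Ear2 had this order. In CuO replicate 3 Ear2 was at 96.1 TPM, near the level of control replicate 3, and Ear1 at 3.2 TPM, below every control lung.

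**Figure D2:**
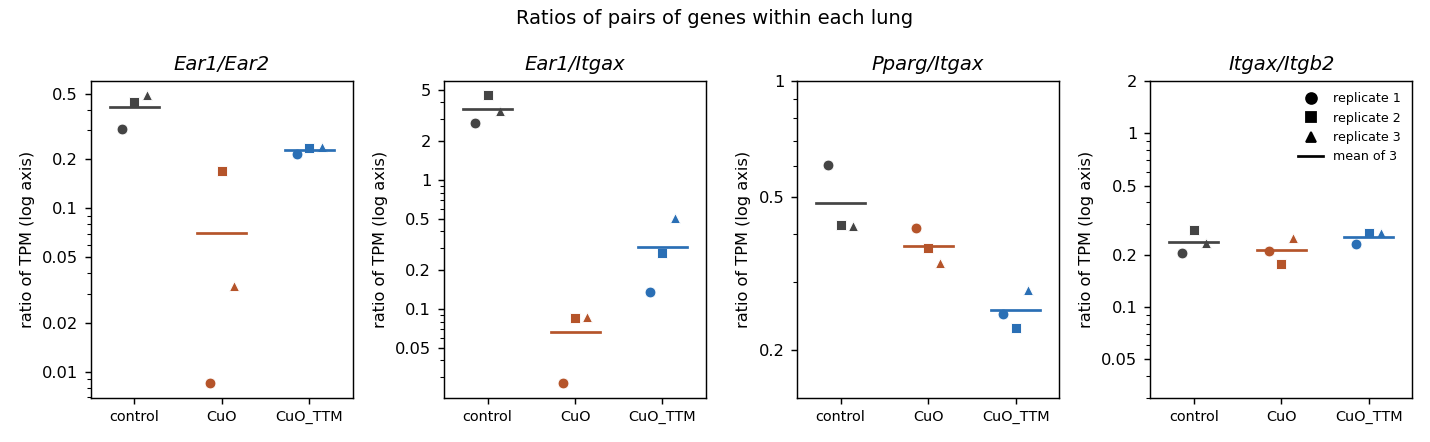
Ratios of TPM within each lung (log axes) for Ear1 to Ear2, Ear1 to Itgax, Pparg to Itgax and Itgax to Itgb2, with 1 point per lung and the group mean as a line. The first ratio lies in 3 separate bands, and the last stays between 0.177 and 0.276 in all 9 lungs.

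Of the rest of the Ear family, Ear6 passed the filter on low values and ranged from 0 to 6.57 TPM with the groups overlapping (CuO against control 0.17, adjusted p = 0.996), and Ear14 was at 0.09 TPM or less. Eosinophils carry Ear and Siglecf transcripts as well, so their markers were read beside these genes. Epx, which encodes eosinophil peroxidase, was listed at 0 in 7 of 9 libraries and reached 0.52 TPM at most. Prg2, which encodes the eosinophil granule major basic protein, was at 16.5 TPM in control replicate 2 and at 1.36 TPM or less elsewhere. The summed level of the 5 eosinophil genes was 0.32 to 18.05 TPM in control, 0.38 to 0.6 TPM in CuO and 1.7 to 3.4 TPM in CuO_TTM lungs. The control lung with the highest eosinophil sum was also the lung with the highest Ear1, Ear2 and Siglecf, and the part of eosinophils in these levels was not tested. In the other control lungs the eosinophil sum was 0.32 and 0.36 TPM and Ear1 was at 24.9 and 48.05 TPM.

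Siglecf, the sialic acid binding lectin used with CD11c to sort alveolar macrophages, gave a pattern dominated by single lungs. It stood at 1.57, 13.7 and 1.81 TPM in control, 0.96, 1.42 and 3.53 TPM in CuO and 0.31, 2.9 and 7.86 TPM in CuO_TTM lungs. Control replicate 2 and CuO_TTM replicate 3 were high, the rest of the control lungs lay inside the range of the exposed lungs, and no pair of groups was separated. The difference was -0.77 in CuO and -0.41 in CuO_TTM against control lungs, with 95% intervals of -2.57 to 1.04 and -2.21 to 1.40 (adjusted p = 0.966 and 0.842). Without control replicate 2 the sign turned in both, to 0.049 and 0.41, and without CuO_TTM replicate 1 it turned in the latter, to 0.31. None of the 7 tested genes among 8 in a list of Siglec genes, Siglecf among them, was called in any comparison, and their median difference in CuO against control lungs was -0.16.

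Krt79, the keratin, was the second member whose CuO lungs all lay below the control lungs. Its levels were 3.7, 13.4 and 3.28 TPM in control, 0.56, 0.98 and 0.83 TPM in CuO and 0.83, 2.47 and 9.04 TPM in CuO_TTM lungs. The CuO lungs were alike, all under 1 TPM, whereas the CuO_TTM lungs ran from the CuO level to the upper part of the control range. The difference was -1.89 in CuO against control lungs (standard error 0.63, adjusted p = 0.449) and 1.17 in CuO_TTM against CuO lungs (adjusted p = 0.783), so neither passed the test. Markers of basal and squamous epithelium, a possible further source of keratins, summed to 0.19 to 1.66 TPM over 5 genes and none of them reached the filter on low values.

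Plet1, the membrane protein, varied as much within groups as between them. Its levels were 39.7, 70.2 and 26.2 TPM in control, 5.26, 26.2 and 51.4 TPM in CuO and 18.2, 31.5 and 58.4 TPM in CuO_TTM lungs. The groups overlapped throughout, and the difference in CuO against control lungs was -1.05 (95% interval -2.71 to 0.61, adjusted p = 0.844). Much of that difference came with CuO replicate 1, without which it was -0.18. Against control lungs the CuO_TTM difference was -0.36 (adjusted p = 0.849), and it was 0.0038 without control replicate 2 and 0.036 without CuO_TTM replicate 1.

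Pparg, the nuclear receptor through which the alveolar macrophage programme is set, showed no detectable difference. It stood at 5.47, 11.6 and 5.85 TPM in control, 3.59, 9.05 and 12.4 TPM in CuO and 9.34, 9.06 and 12.0 TPM in CuO_TTM lungs. The groups overlapped, and the difference in CuO against control lungs was 0.051 with a 95% interval of -0.89 to 0.99 (adjusted p = 0.996), an interval that still allows a change of nearly 1 unit either way. In CuO_TTM against control lungs it was 0.43 (adjusted p = 0.643). Adipocytes also express Pparg. The 5 adipocyte genes, led by Adipoq, which encodes adiponectin, at 33.9 TPM, summed to 88.8 TPM in CuO_TTM replicate 1 and to 0.35 to 25.1 TPM in the other lungs. Fabp4, which is not among these 5 but which adipocytes also express, was at 334 TPM in that lung. Their part in the Pparg level of that lung was not tested.

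Itgax, which encodes the CD11c integrin chain, was the only member whose CuO_TTM lungs all lay above the control lungs. Its levels were 9.03, 27.4 and 13.98 TPM in control, 8.64, 24.7 and 36.9 TPM in CuO and 37.7, 39.8 and 41.95 TPM in CuO_TTM lungs. Every CuO_TTM lung lay above every control and every CuO lung, and the 3 were close together, at 39.8 ± 2.12 TPM (SD, n = 3). The difference was 1.33 in CuO_TTM against control lungs (standard error 0.51, 95% interval 0.18 to 2.48, adjusted p = 0.209), 0.95 in CuO_TTM against CuO lungs (adjusted p = 0.785) and 0.38 in CuO against control lungs (adjusted p = 0.990). The first of these passed the threshold without CuO replicate 1 (limma adjusted p = 0.0495). That lung is in neither group, so the difference stayed the same and only the pooled spread changed. Genes called in that comparison ran from 3 to 1660 with each library left out in turn, against 294 with all 9. The difference in CuO against control lungs was -0.045 without CuO replicate 3. Higher levels without overlap were common in CuO_TTM against control lungs, where they were found in 31% of all genes.

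CD11c pairs with the beta 2 chain encoded by Itgb2 on the cell surface. The ratio of Itgax to Itgb2 was 0.204, 0.276 and 0.233 in control, 0.209, 0.177 and 0.248 in CuO and 0.231, 0.265 and 0.266 in CuO_TTM lungs. The SD of its log2 value over the 9 lungs was 0.21, rank 5 from the smallest among 14900 genes set over Itgb2, where the median gene had 0.75. The partner chains Itgal and Itgam had 0.82 and 0.36. Among other members Pparg, which encodes no integrin chain, had 0.40, and Siglecf and Ear1 had 1.69 and 2.76. A small spread was thus not limited to partner chains. Itgb2 itself was 1.28 higher in CuO_TTM than in control lungs on the log2 scale (limma adjusted p = 0.200). It passed the test without CuO replicate 1 (adjusted p = 0.0259), a lung of neither group, which changed only the pooled spread.

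Dendritic cells also carry Itgax. The summed level of 9 dendritic cell genes was 50.3 to 69.7 TPM in control, 28.5 to 49.7 TPM in CuO and 74.9 to 84.8 TPM in CuO_TTM lungs, and Flt3, the receptor that defines the lineage, was at 4.32 to 6.28 TPM in CuO_TTM lungs against 0.87 to 2.97 TPM in all others. The sum included Ccr7 at 42.6 TPM in CuO_TTM replicate 1 and Itgae at 23.5 and 21.9 TPM in CuO_TTM replicates 2 and 3. Of the 9 genes, 0 were called in CuO_TTM against control lungs, where 1.9% of all genes were. Differences were above 0 for 6 and below 0 for 3, where 29% of all genes were below 0. Without overlap 4 were higher, against 31% of all genes, and 2 were lower, against 5.73%. The lower 2 were Cd209a at 2.43 to 3.16 against 4.49 to 20.9 TPM and Zbtb46 at 5.29 to 9.73 against 9.86 to 10.5 TPM. The part of dendritic cells in the level of Itgax was not tested.

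Taking the 7 genes by comparison, 0 of 7 passed the limma test at an adjusted p of 0.05 in CuO against control lungs, where 0% of all genes were called although 1231 of them (7.95%) had an unadjusted p under 0.05. At an unadjusted p under 0.05, 3 of 7 were lower, against 2.49% of all genes, and 0 were higher. In 2 of 7, Ear1 and Krt79, the CuO lungs all lay below the control lungs, against 3.53% of all genes. The members' median difference was -1.05 with 5 of 7 below 0, and that of all genes was 0.032 with 46.5% below 0. The members' median was -0.68 without control replicate 2, -0.52 without CuO replicate 1 and -1.72 without CuO replicate 3.

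In CuO_TTM against CuO lungs, 0 of 7 were called, against 0.71% of all genes. All 7 differences were above 0, where 27.4% of all genes were below 0, with a median of 0.69 against 0.19 for all genes. That median was 0.39 without CuO replicate 1, 1.29 without CuO replicate 3, 1.08 without CuO_TTM replicate 1 and 0.27 without CuO_TTM replicate 3. Ear1 and Itgax were higher without overlap, as were 9.78% of all genes, and 1 of 7, Ear1, was higher at an unadjusted p under 0.05, against 5.77% of all genes. This comparison and the previous one share the CuO lungs. In CuO_TTM against control lungs, 0 of 7 were called, against 1.9% of all genes, and the median of -0.41, with 5 of 7 below 0, stood beside 0.24 for all genes, 29% of them below 0. Its sign turned without control replicate 2, to 0.0038, and without CuO_TTM replicate 1, to 0.036, and it was -0.85 without control replicate 1, -0.78 without control replicate 3 and -1.07 without CuO_TTM replicate 3. Ear1 was lower without overlap, as were 5.73% of all genes. In exposed against control lungs, 0 of 7 were called, against 0.349%, and the median was -0.70 with 5 of 7 below 0, where all genes had 0.14 and 35%. It was -0.34 without control replicate 2 and -0.46 without CuO replicate 1. At an unadjusted p under 0.05, 3 of 7 were lower there, Ear1, Ear2 and Krt79, against 3.14% of all genes. Ear1 alone was lower without overlap, as were 1.8% of all genes.

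**Figure D3:**
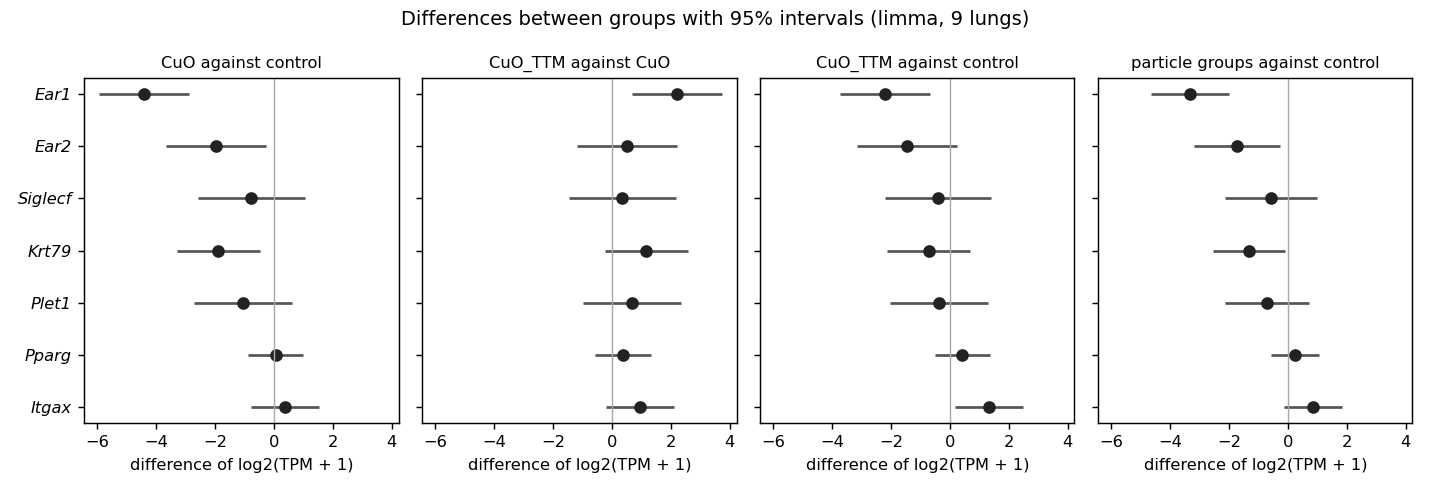
Difference of log2(TPM + 1) for each member in the 4 comparisons, as points with 95% intervals from limma over 9 lungs. The interval of Ear1 lies below 0 in CuO against control lungs, at -5.96 to -2.89, and that of Pparg spans 0 in every comparison.

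The order of levels among the members changed between groups. In control lungs it ran Ear2, Ear1, Plet1, Itgax, Pparg, Krt79 and Siglecf, with means from 152.8 to 5.68 TPM. In CuO lungs Ear1 had rank 6, between Siglecf at 1.97 TPM and Krt79 at 0.79 TPM, and Itgax rank 3 at 23.4 TPM. In CuO_TTM lungs Itgax had rank 2 at 39.8 TPM, after Ear2 at 53.3 TPM, and Ear1 rank 4. Most neighbours in these orders did not differ beyond their spread. Siglecf, Krt79 and Pparg overlapped in the control lungs, as did Siglecf and Ear1 in the CuO lungs.

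Within a group the members ranked the lungs alike. Control replicate 2 had the highest level of its group for 7 of 7 members and the highest of all 9 lungs for 5. CuO_TTM replicate 3 was highest of its group for 7 of 7 and CuO replicate 3 for 6 of 7, whereas CuO replicate 1 and CuO_TTM replicate 1 were lowest of their groups for 6 of 7. The median gene of the table ranked these lungs the same way, on the log2 scale against the mean of all libraries. It was highest of its group in control replicate 2 (-0.013), CuO replicate 3 (0.20) and CuO_TTM replicate 3 (0.26). It was lowest in CuO replicate 1 (-0.53) and CuO_TTM replicate 1 (-0.0077), so the order of these lungs was not particular to the members. Among control lungs, replicate 1 was lowest for 5 of 7 members, but replicate 3 (-0.16) was lowest for the median gene. The members' spread was wider. Their mean log2(TPM + 1), less the control mean, ran from -0.60 to 1.03 in control lungs, where the median gene ran from -0.16 to -0.013. It ran from -2.20 to -0.55 in CuO and from -1.26 to 0.32 in CuO_TTM lungs. The summed level of the 7 genes was 165, 540 and 197 TPM in control, 46.3, 77.0 and 204 TPM in CuO and 95.6, 143 and 240.04 TPM in CuO_TTM lungs, so that the group ranges overlapped.

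Set over Itgax within each lung, all 6 other members had lower ratios in every CuO lung than in every control lung, as had 5.19% of all genes. For Ear1 the ratio was 2.76, 4.53 and 3.44 in control, 0.0266, 0.0860 and 0.0867 in CuO and 0.136, 0.272 and 0.508 in CuO_TTM lungs, again in 3 separate bands, an order found in 6 genes (0.0387%). For Pparg it was 0.606, 0.421 and 0.4185 in control, 0.4155, 0.367 and 0.337 in CuO and 0.248, 0.228 and 0.286 in CuO_TTM lungs. The Pparg ratio was lowest in the CuO_TTM lungs, an order that 1.94% of all genes had, although Pparg itself did not separate the groups.

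The genes most like each member across the 9 lungs were found by Pearson correlation of log2(TPM + 1) among 10320 genes with a mean of at least 5 TPM, given as a description over libraries that share their scaling and their differences between lungs. Ear1 was most like Fos (r = 0.94), Tpst2 (0.93) and Tspyl2 (0.93). Fos, which encodes an immediate early transcription factor, was at 25.9, 43.9 and 27.7 TPM in control, 8.28, 16.4 and 19.1 TPM in CuO and 19.4, 19.2 and 22.4 TPM in CuO_TTM lungs. Ear2 was most like Dll4 (0.98), which encodes a Notch ligand, Siglecf like Rrnad1 (0.93), Krt79 like Edn1 (0.89), which encodes the peptide endothelin-1, Plet1 like Ntn1 (0.99), which encodes netrin-1, Pparg like Mknk1 (0.99) and Itgax like Dohh (0.99). No gene was among the nearest 3 of more than 1 member except Rrnad1, which was so for Siglecf and Krt79.

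Of 19 other alveolar macrophage genes 18 were tested, 9 were above and 9 below 0 in CuO against control lungs, their median difference was -0.0020 and 0 were called. At an unadjusted p under 0.05, 4 of 18 were lower and 1 was higher, and 3 of 18 were lower without overlap, beside the 2.49% and 3.53% of all genes given above for lower levels. Whether these genes differ from the members was not tested. Fabp1, which encodes a fatty acid binding protein, came closest to Ear1, at 24.1, 44.2 and 5.87 TPM in control, 1.46, 0.79 and 1.16 TPM in CuO and 0.6, 0.88 and 2.5 TPM in CuO_TTM lungs. All 6 exposed lungs lay below the control lungs, with no separation between CuO and CuO_TTM. Fabp1 fell by 3.18 in CuO_TTM against control lungs (limma adjusted p = 0.0372) and by 3.20 in exposed against control lungs (adjusted p = 0.0464). The first call was lost without control replicate 1 or 2, CuO replicate 3 or any CuO_TTM replicate (adjusted p = 0.0553 to 0.178). The second was lost without any library other than control replicate 3 and CuO replicate 1 (adjusted p = 0.0515 to 0.268). With no filter on low values the adjusted p were 0.115 and 0.125 and with the replicate number as a block 0.0786 and 0.0979, and rescaled without Scgb1a1 the second was 0.0509. Gal, the neuropeptide galanin, and Car4, a carbonic anhydrase, were lower without overlap in CuO than in control lungs, with differences of -1.25 and -1.0 (adjusted p = 0.332 and 0.492).

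Marco, the scavenger receptor that binds inhaled particles, went otherwise. It was at 5.31, 11.4 and 4.21 TPM in control, 0.68, 0.67 and 4.37 TPM in CuO and 11.6, 37.9 and 56.96 TPM in CuO_TTM lungs. Marco was 3.63 higher in CuO_TTM than in CuO lungs on the log2 scale (limma adjusted p = 0.0425), the only call among these 18 genes in that comparison. That call was lost without any 1 of 7 libraries, all but CuO replicate 3 and CuO_TTM replicate 1 (adjusted p = 0.0680 to 0.195). It was also lost with a pseudocount of 0.1 (adjusted p = 0.0702), without a filter on low values (0.164), when genes were kept by a mean of 5 TPM or more (0.0515) and in a fit to only the groups compared (0.146). Chil3 and Mrc1, abundant alveolar macrophage transcripts for a chitinase-like protein and the mannose receptor, overlapped between all groups, with differences of -0.53 and 0.11 in CuO against control lungs (adjusted p = 0.995 and 0.996).

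**Figure D4:**
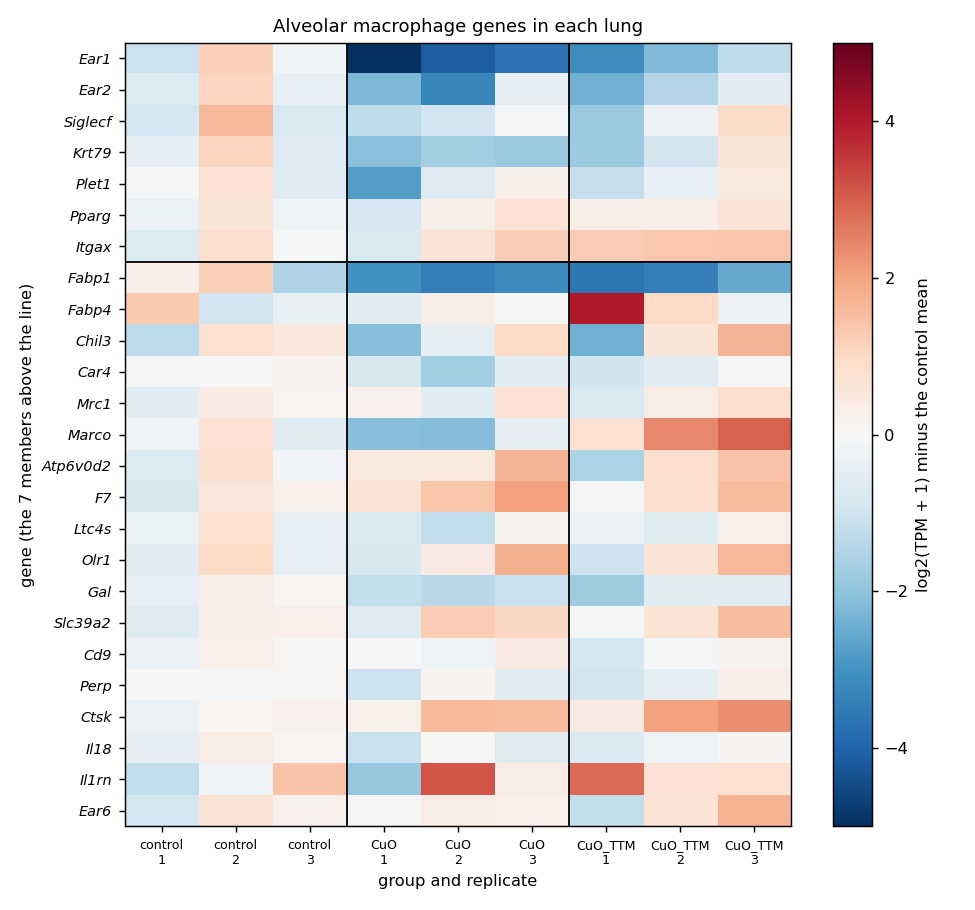
Level of the 7 members (above the line) and of the 18 other tested alveolar macrophage genes in each of the 9 lungs, as the difference of log2(TPM + 1) from the mean of the control lungs, with a colour scale that ends at -5 and 5. Ear1 and Fabp1 are low in all 6 exposed lungs, and Marco is high in the CuO_TTM lungs, at 11.6 to 56.96 TPM.

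Genes that set the alveolar macrophage programme, 16 ligands, receptors and transcription factors, had a median difference of 0.39 in CuO and 0.79 in CuO_TTM against control lungs, where all genes had 0.032 and 0.24, and 0 of 16 were called in either. Csf2, which encodes GM-CSF, was at 3.87, 5.77 and 5.86 TPM in control, 10.8, 19.9 and 7.99 TPM in CuO and 4.16, 8.64 and 5.57 TPM in CuO_TTM lungs. The CuO lungs all lay above the control lungs, and the difference was 1.10 (adjusted p = 0.452). Bhlhe41, a repressor that maintains alveolar macrophages, was likewise higher in every CuO lung, at 3.16, 5.45 and 9.37 TPM against 1.39, 2.02 and 1.68 TPM, with a difference of 1.28 (adjusted p = 0.315). Tgfb1, which encodes TGF-beta 1, was highest in the CuO_TTM lungs, at 70.2 to 77.8 TPM against 33.7 to 49.9 TPM in control lungs. The difference was 0.80 (limma adjusted p = 0.116). It passed the test without CuO replicate 1 (adjusted p = 0.0286), a lung of neither group, which changed only the pooled spread. Of lipid handling genes under PPAR gamma or LXR, 10 of 11 were tested and 0 were called in any comparison, where at most 1.9% of all genes were. Their median difference in CuO against control lungs was -0.10. At an unadjusted p under 0.05, 2 of 10 were lower there, against 2.49% of all genes, and 0 were higher. Without overlap 1 of 10 was lower, against 3.53% of all genes. It was Cidec, also among the adipocyte genes, at 0.12 to 1.46 TPM in CuO and 2.13 to 24.7 TPM in control lungs.

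Markers of other macrophages were read beside the members. Over 16 genes of monocyte-derived and interstitial macrophages the summed level was 1225 to 2232 TPM in control, 3867 to 6896 TPM in CuO and 4003 to 7715 TPM in CuO_TTM lungs, with no overlap between control and exposed lungs. Apoe alone was at 730 to 986 TPM in control, 2648 to 4346 TPM in CuO and 1179 to 5038 TPM in CuO_TTM lungs. Ccr2, Cx3cr1, Ly6c2 and Itgam overlapped between control and CuO lungs. In CuO_TTM lungs all of these but Ly6c2 lay above every control lung. As the mean of log2(TPM + 1) over the 16 genes, CuO replicate 1 was 0.32 above the mean of the control lungs, which themselves ran from -0.52 to 0.55. The other 5 exposed lungs were 1.42 to 1.74 above it. In CuO_TTM against control lungs 6 of the 16 rose, where 1.9% of all genes were called: the complement genes C1qa, C1qb and C1qc, the lipid receptor gene Trem2, Gpnmb and the transcription factor gene Maf (limma adjusted p = 0.0208 to 0.0441). The median difference of the 16 was 1.41, and 2 were below 0, Lyve1 and Cd163, with means of 206 and 3.73 TPM in control, 101 and 2.89 TPM in CuO and 80.1 and 2.86 TPM in CuO_TTM lungs. Each of the 6 calls was lost without control replicate 1, control replicate 2, CuO_TTM replicate 2 or CuO_TTM replicate 3. Trem2, Gpnmb and Maf also lost theirs without control replicate 3, Gpnmb and Maf without CuO replicate 3, and Maf without CuO replicate 2 or CuO_TTM replicate 1, and over all these the adjusted p was 0.0501 to 0.222. With no filter on low values all 6 calls were lost (adjusted p = 0.0525 to 0.123). Maf was also lost with quantile normalization (0.137), median-ratio scaling (0.135), rescaling without Scgb1a1 (0.1003) and the replicate number as a block (0.0918), and Gpnmb with that rescaling (0.0659) and a pseudocount of 0.1 (0.0575). In CuO against control lungs 8 of the 16 were higher without overlap, against 9.37% of all genes, and 0 were called, and in exposed against control lungs 4 were called, against 0.349% of all genes. Cd68, shared by macrophages, was at 28.2, 78.8 and 73.7 TPM in control, 96.2, 295 and 289.6 TPM in CuO and 254.01 to 299 TPM in CuO_TTM lungs. The Cd68 level and the summed level separated control from exposed lungs, and their part in the levels of the members was not tested.

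Airway epithelial markers were low in some lungs. The 8 alveolar type 2 genes had a median difference of 0.010 in CuO against control lungs with 0 called. The 6 club cell genes summed to 176044 to 234929 TPM in control and 74217 to 125182 TPM in CuO lungs, and to 83608, 2302 and 4206 TPM in the CuO_TTM lungs, led by Scgb1a1. Since TPM are shares of a fixed total, the levels were also rescaled without Scgb1a1, which turned the sign of Pparg in CuO against control lungs, to -0.095, and of no other difference given for a member. The direction of Ear1, Ear2 and Krt79 was the same under every scaling tried.

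**Figure D5:**
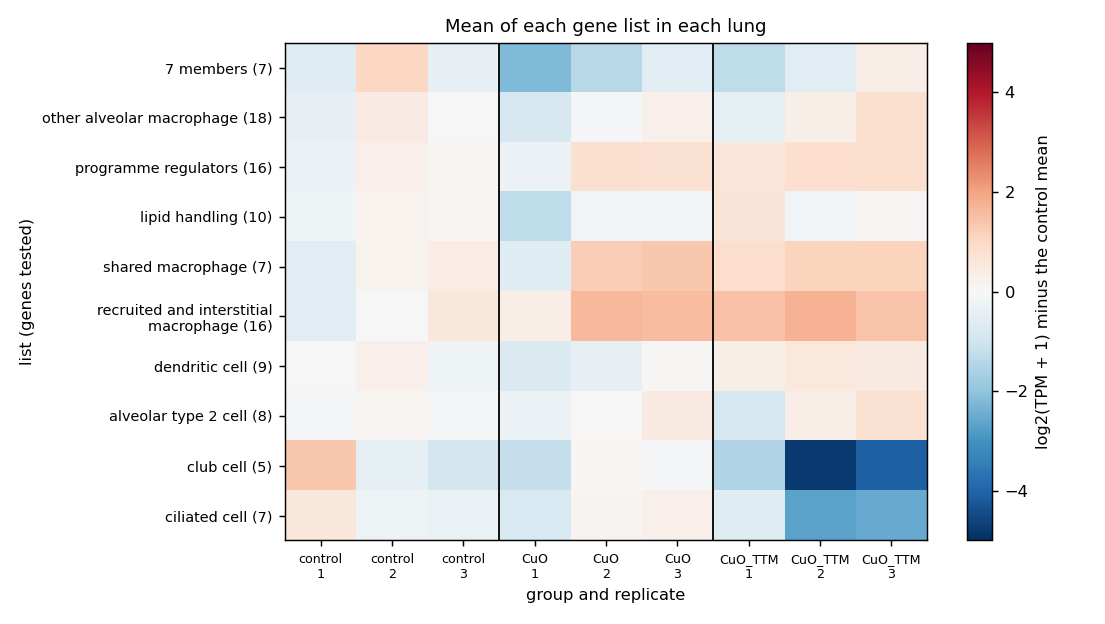
Mean of log2(TPM + 1) over the tested genes of the members and of 9 other gene lists in each of the 9 lungs, as the difference from the mean of the control lungs, with a colour scale that ends at -5 and 5 and the number of genes in brackets. The members are lowest in CuO replicate 1, the recruited and interstitial macrophage list is high in the other 5 exposed lungs, and the airway lists are low in CuO_TTM replicates 2 and 3.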

How the data were processed

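Lung tissue of 9 mice in 3 groups of 3 was sequenced as paired-end, stranded, polyadenylated RNA libraries, per the labels' protocols. The authors deposited 1 table of TPM for 57010 genes, and every column was matched to a sample. The submitters' processing notes name fastp, HISAT2, RSEM, DESeq2 and the build GRCm39, with no versions or roles. TPM keep no depth, so no count test was used. Ensembl identifiers were paired with symbols through GENCODE M21 names for 52029 of the 57010.

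The computation started from TPM. Tests were limited to genes that reached 1 TPM in 3 or more libraries and were made on log2(TPM + 1), with a pseudocount of 1, which understates the change of low genes. limma 3.58.1 in R 4.3.3 was fitted to all 9 libraries with a trend on abundance, with 4 contrasts and an F test, and Benjamini-Hochberg adjustment over all 15487 genes at 0.05. Single members were also given an exact two-sided permutation test, where 3 against 3 lungs cannot go below 0.1. The fit was also run on simulated data with independent noise in each gene and library. That run had no lung that stood apart as a whole, so it cannot show how the fit behaves with one. Sequences were aligned with Biopython 1.88 and figures drawn with matplotlib 3.10.9. Nothing in the labels says how the mice were housed or dosed in sets. The limma p-values set each difference against a spread between lungs that was pooled over the groups fitted and moderated across genes.

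The members and the gene lists were chosen with earlier results of these data known. Besides the members, list genes were named when among the 3 of smallest p of their list in CuO against control or in CuO_TTM against CuO lungs, when called, or as a defining marker of another cell type. For each member the 3 genes of highest correlation were taken. Alternatives were other scalings, pseudocounts, filters, moderation, samples in the fit, the replicate number as a block and libraries left out.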

Additional observations from a re-analysis of the deposited data

How the results depend on the processing

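The precision here is set by 3 lungs a group, and depth was unknown. All differences are of log2(TPM + 1) by limma. The number of members called, 0 in each comparison as reported, became 1 in CuO against control lungs with library weights, with the replicate block and without CuO replicate 1 and CuO_TTM replicate 1. In CuO_TTM against control lungs it became 2 with library weights and 1 without CuO replicate 1 and control replicate 2, and ran from 0 to 1 with each library left out in turn. In exposed against control lungs it became 1 with quantile normalization, median-ratio scaling, a mean of at least 5 TPM, the replicate block, and without CuO replicate 1 and either control replicate 2 or CuO_TTM replicate 1. It became 2 there with library weights and ran from 0 to 1 with each library left out in turn. In CuO_TTM against CuO lungs it was 0 in all 22 alternatives. Gene counts over the whole table, reported as 0, 110, 294 and 54 for the 4 comparisons and 186 for the F test, ran from 0 to 340, 0 to 671, 1 to 6062, 0 to 3921 and 0 to 4705.

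The adjusted p of the F test for Ear1, 0.0384 as reported, was 0.0745 with a pseudocount of 0.1, 0.129 with no filter, 0.275 without CuO_TTM replicates 2 and 3, 0.0897 without CuO replicate 1 and control replicate 2, and 0.0361 to 0.149 with each library left out. With the replicate block, Ear1 passed in CuO against control (adjusted p = 0.0408) and in exposed against control lungs (adjusted p = 0.0491). Same-numbered lungs deviated from their group means with correlations of -0.37 to 0.29, and differently numbered lungs with -0.27 to 0.35. With 3 lungs a group, these values cannot decide whether same-numbered lungs were handled as a set. The direction of Ear1, Ear2 and Krt79 against control lungs was kept in all alternatives. With each library left out in turn, CuO against control ran from -4.96 to -3.82 for Ear1, -2.76 to -1.34 for Ear2 and -2.21 to -1.33 for Krt79.

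Without CuO replicate 1 and control replicate 2, the members' median turned to 0.18 in CuO and 0.093 in exposed against control lungs, and it was -1.85 in CuO_TTM against control lungs without CuO_TTM replicates 2 and 3. Those first 2 libraries left out turned Siglecf to 0.30 and Plet1 to 0.18 in CuO, Siglecf to 0.41 and Plet1 to 0.0038 in CuO_TTM, and Siglecf to 0.35 and Plet1 to 0.093 in exposed against control lungs, and Plet1 to -0.18 and Pparg to -0.070 in CuO_TTM against CuO lungs. Without CuO_TTM replicates 2 and 3, Ear2 was -0.41, Siglecf -1.09 and Plet1 -0.11 in CuO_TTM against CuO lungs. Without CuO replicate 1 and CuO_TTM replicate 1, Pparg was -0.022 there, and against control lungs Siglecf was 0.31 and Plet1 0.036 in CuO_TTM. Library weights gave Plet1 -0.029 and Pparg -0.099 in CuO_TTM against CuO lungs, and leaving Scgb1a1 out gave Pparg -0.095 in CuO against control lungs. With each library left out, CuO against control ran from -1.21 to 0.049 for Siglecf, -0.28 to 0.50 for Pparg and -0.045 to 0.94 for Itgax. CuO_TTM against CuO ran from -0.13 to 1.29 for Ear2, -0.30 to 1.08 for Siglecf, -0.18 to 1.35 for Plet1 and -0.070 to 0.70 for Pparg. Against control lungs Siglecf ran from -1.07 to 0.41 and Plet1 from -0.78 to 0.036 in CuO_TTM, and Siglecf from -1.03 to 0.23 over all exposed lungs. The cause was not tested. The pairs of libraries that hold CuO replicate 1 and the ratios within a library were chosen after seeing the data. A fit to only the groups compared was not run for exposed against control lungs and the F test, which need all 9 libraries.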
